A study of Mus musculus with 4 samples.

Results

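Pcsk1, Pcsk2, Cpe and Pam encode enzymes that turn prohormones into active peptides in the secretory granules of islet cells. They were taken by gene symbol from the count tables of mouse pancreatic islet cells, 4 genes of the 30905 listed, and every one of them was counted in every library. Levels were followed in beta, alpha, delta and gamma cells, which make insulin, glucagon, somatostatin and pancreatic polypeptide. Pcsk1 and Pcsk2 are the convertases that cut prohormones after pairs of basic residues. In beta cells both act on proinsulin, and in alpha cells Pcsk2 releases glucagon from proglucagon. Cpe, carboxypeptidase E, then trims the basic residues left at the cut ends, and Pam turns a terminal glycine into the amide that amylin, pancreatic polypeptide and other peptides need.

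The study sequenced single islet cells of male mice in 4 libraries, 1 for each labelled group: late db/db with intervention at 98 days of age, late db/db at 98 days, early db/db at 70 days and normal control at 98 days. The db allele disrupts the leptin receptor, and the db/db animals were kept until they were hyperglycaemic. All 4 groups, with the control among them, carry the genotype label db/db(C57BL/KsJ). The growth protocol also names C57BL/6 mice, and which strain and genotype the control had cannot be told from the labels. The deposited files of the early db/db library carry a name that reads like a second control, and the label was followed here, so every early db/db value rests on that label. What the intervention was and how many mice each library pooled are not given in the sources used here. With 1 library per group, the group, its animals and its library cannot be told apart, no test was possible, and every 95% interval below covers counting error only.

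Cells were kept with at least 1000 UMIs, a UMI being 1 counted molecule. The intervention library held 4906 kept cells, late db/db 5983, early db/db 4616 and the control 4458, with medians of 26385.5, 6201, 14563 and 25984 UMIs per cell in that order. Beta cells were those with at least 20% of UMIs from Ins1 and Ins2 and under 5% from each of Gcg, Sst and Ppy, and they numbered 3231, 746, 1531 and 2323. Alpha cells, with Gcg at 5% of UMIs or more, numbered 544, 137, 761 and 1063, delta cells, set likewise by Sst, 193, 103, 205 and 295, and gamma cells, set by Ppy, 110, 53, 125 and 63. Of the late db/db cells, 4170 fell in a leukocyte gate, and the other libraries held 104 to 456 such cells. These leukocytes do not make islet hormones and served as a guide to the free RNA in a droplet. Hormones took 13.6% of their UMIs in the intervention library and 2.04% to 2.67% in the others. Any pair of libraries shared 3 to 11 kept cell barcodes. The beta classes held their own markers: 8 of 8 beta markers were highest in beta cells of the control and 6 of 8 in the other libraries, where Pdx1 and Slc30a8 were not. Summed over the 8 genes, these markers came to 3509 CPM in the intervention library, 1696 in late db/db, 1781 in the early db/db library and 8703 in the control. Alpha markers were highest in alpha cells for 5 of 7 genes in every library, and delta markers for 4 or 5 of 5. Gamma markers were highest in gamma cells for 5 of 6 genes in the control but for 3 of 6 in the others. The gamma class there rests mainly on the hormones Ppy and Pyy, with Vsig1 beside them. Ppy, 1 of these 6, also set the class, so its place was fixed in advance. CPM is the number of UMIs per 1000000 of the class sum, leaving out mitochondrial genes and 7 hormone genes, because hormone messages alone took 54.8% to 68.8% of beta cell UMIs.

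The start regions of 3 of the 4 genes are shown, since in beta cells of late and early db/db Pcsk1 was lower and Pam higher than in the control. They are RefSeq sequences of mouse build GRCm38.p6, 5′ to 3′ on the strand of the gene, from 250 bases before the annotated start to 50 after it. Capitals in Pcsk1 (chr13:75089607-75089906, plus strand) mark TGACG on either strand, the core of the cyclic AMP response element TGACGTCA. Capitals in Pcsk2 (chr2:143545883-143546182, plus strand) and in Pam (chr1:98095597-98095896, minus strand, the outer of a pair of listed starts) mark the GC box GGGCGG on either strand.
Pcsk1: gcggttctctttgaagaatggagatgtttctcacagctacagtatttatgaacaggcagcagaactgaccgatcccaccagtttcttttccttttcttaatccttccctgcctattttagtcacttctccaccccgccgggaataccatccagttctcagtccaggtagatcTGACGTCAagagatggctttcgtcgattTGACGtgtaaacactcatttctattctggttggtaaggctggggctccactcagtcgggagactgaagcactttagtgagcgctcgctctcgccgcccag
Pcsk2: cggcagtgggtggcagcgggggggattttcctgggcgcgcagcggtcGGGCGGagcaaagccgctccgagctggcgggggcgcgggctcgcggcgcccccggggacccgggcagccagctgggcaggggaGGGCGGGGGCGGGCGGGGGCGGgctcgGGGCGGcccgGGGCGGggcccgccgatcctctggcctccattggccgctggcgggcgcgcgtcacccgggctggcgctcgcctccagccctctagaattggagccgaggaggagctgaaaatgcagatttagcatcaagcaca
Pam: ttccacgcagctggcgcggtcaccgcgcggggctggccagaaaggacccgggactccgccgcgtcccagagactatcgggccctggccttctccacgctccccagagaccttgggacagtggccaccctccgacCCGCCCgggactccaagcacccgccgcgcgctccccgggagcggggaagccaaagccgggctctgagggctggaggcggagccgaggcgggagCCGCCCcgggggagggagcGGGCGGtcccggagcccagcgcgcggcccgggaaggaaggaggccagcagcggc
The Pcsk1 stretch held 1 full TGACGTCA, which 1.79% of 32851 mouse start regions hold, and TGACG matched at 78, 75 and 50 bases before the start, the first 2 overlapping inside that element. TGACG was present in 20.8% of all start regions and GGGCGG in 35.7%. The Pcsk2 stretch held 7 GC boxes, some overlapping, the Pam stretch 3 and the Pcsk1 stretch 1, which is not in capitals. TGACG also had 1 match in the Pcsk2 stretch, likewise not in capitals, and 0 in the Pam stretch. GC content was 49.3% in Pcsk1, 76.3% in Pcsk2 and 76.3% in Pam, against a median of 52.7% over all start regions, and the number of CpG dinucleotides was 13, 36 and 35 against a median of 7. These matches describe letters and do not show that a factor binds. In GENCODE M21 (GRCm38) Pcsk1 spans chr13:75089826-75134861, Pcsk2 chr2:143546156-143816285, Cpe chr8:64592542-64693054 on the minus strand and Pam chr1:97795114-98095646 on the minus strand. Pcsk2 overlaps the antisense genes Pcsk2os1 and Pcsk2os2, neither of which reaches its last 1000 bases, where 3′ tags fall.

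Pcsk1 was a beta cell message that was lower in late and early db/db than in the control. In beta cells it stood at 549 CPM in the intervention library (95% interval 543 to 556), 311 in late db/db (304 to 318), 318 in early db/db (312 to 325) and 642 in the control (634 to 651). The early and late libraries lay together, the control lay highest, and the intervention library lay between them and nearer to the control. The log2 ratio of late db/db to control was -1.05 (-1.08 to -1.01), a 2.07-fold lower level, and that of early db/db to control was -1.01. Late and early db/db differed by -0.03 (-0.08 to 0.01), within counting error on this scale. The value was 0.16 over all UMIs and -0.07 under TMM scaling, so it has no direction that holds. The intervention library was 1.77-fold above late db/db, a log2 ratio of 0.82 (0.79 to 0.86). Against control it was lower by a log2 ratio of -0.23 on this scale, but higher, at 0.19 and 0.05, over all UMIs and under TMM scaling.

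How beta cell levels are scaled matters for every comparison with the control, because the median of all 4187 genes compared between late db/db and control was itself -0.29 on the log2 scale, 0.31 over all UMIs and 0.02 under TMM for the same genes. For Pcsk1 in late db/db against control the log2 ratio was -0.45 with all UMIs and -0.73 with TMM, so its direction held while the 2-fold difference did not. Relative to the median gene it was -0.76, and 9.89% of the genes compared had a lower ratio. In early db/db against control the values were -0.61 with all UMIs and -0.66 with TMM. For the intervention against late db/db they were 0.64 and 0.78, and 98.5% of genes had a lower ratio than Pcsk1.

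Single beta cells showed the same order. Among cells with enough depth for a per-cell value, the median Pcsk1 level was 517 CPM in the intervention library, 277 in late db/db, 285 in the early db/db library and 554 in the control. The libraries overlapped cell by cell: the 25th to 75th percentiles ran from 316 to 763 CPM in the intervention library, 176 to 422 in late db/db, 165 to 440 in early db/db and 341 to 819 in the control. At least 1 Pcsk1 UMI was found in 95.1% of beta cells of the intervention library, 95.4% in late db/db, 89.6% in the early db/db library and 95.7% in the control, against 18.3%, 2.01%, 2.63% and 8.65% of leukocytes. Beta cells had medians of 41875, 88707.5, 56490 and 49748 UMIs in that order, and leukocytes 4869, 5172.5, 4590 and 9108.5. Thinned to 3000 UMIs per cell, hormone UMIs included, the shares were 45.9%, 32.2%, 27.2% and 38.7% of beta cells, and 13.3%, 1.21%, 1.29% and 3.57% of leukocytes. The beta cell order is that of the CPM over all UMIs, 201, 130, 116 and 177. It differs from the order of the CPM without hormone genes, where the control lay highest.

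Outside beta cells Pcsk1 ranked delta, gamma, then alpha in each of the 4 libraries. Delta cells had 94.7 CPM in the intervention library (77.9 to 114), 94.7 in late db/db (79.4 to 112), 87.6 in early db/db (72.8 to 105) and 105 in the control (93.5 to 118), and these intervals overlap. Gamma cells had 55.1, 27.5, 46.6 and 78.8 CPM in the same order, from 39, 20, 50 and 57 UMIs, and in the control their interval (59.7 to 102) overlaps that of delta cells. Alpha cells had 17.9, 1.30, 3.15 and 6.23 CPM, from 64, 3, 21 and 77 UMIs. Leukocytes had 103, 11.4, 9.05 and 13.5 CPM, so that the alpha values lie below the level in leukocytes of the same library and are not read as expression. In the intervention library the leukocytes held as much Pcsk1 as the delta cells and more than the gamma cells. By CPM neither class can be told there from the leukocyte level. Per cell, alpha cells of that library held 0.118 Pcsk1 UMIs, gamma cells 0.355, leukocytes 0.527 and delta cells 0.575. The 69 leukocyte UMIs came from 24 of 131 cells, and that level is a loose guide to free RNA. Whether the gate there holds other cells was not tested. In each library beta exceeded alpha cells at least 2-fold, by 30.6-fold in the intervention library, 101-fold in early db/db and 103-fold in the control. In late db/db the ratio of 239 rests on 3 alpha UMIs, with a log2 interval of 6.35 to 10.2. Such a beta excess over alpha is not rare: 14.7% of genes in the intervention library, 16.3% in late db/db, 18.5% in the early db/db library and 17.8% in the control had it.

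**Figure D1:**
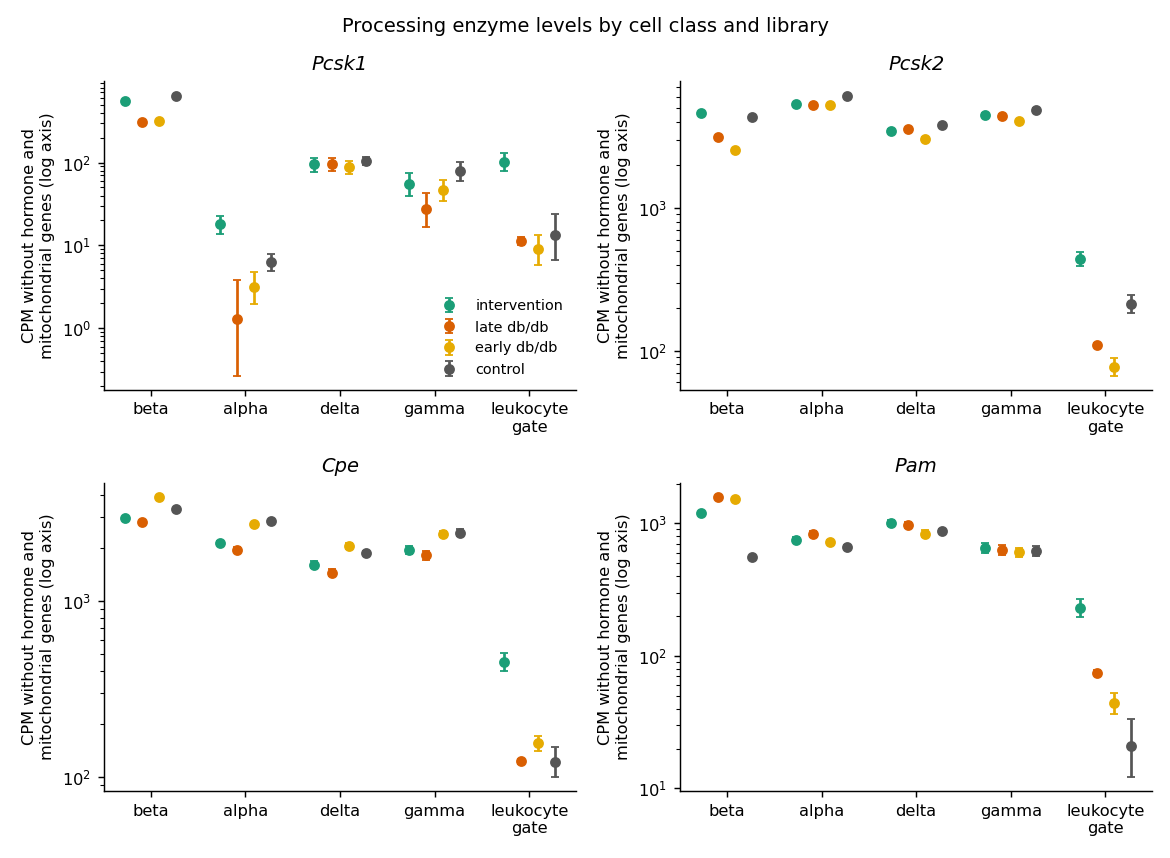
Level of Pcsk1, Pcsk2, Cpe and Pam (CPM without hormone and mitochondrial genes, log axis) in 4 endocrine classes and in the leukocyte gate, with 1 point per library and bars for the 95% counting interval. Pcsk1 is highest in beta cells (311 to 642 CPM) and Pcsk2 in alpha cells (5241 to 6128 CPM), while Pam in beta cells is lowest in the control (553 CPM) and highest in late db/db (1574 CPM).

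Pcsk2, the convertase shared by all islet endocrine cells, gave the most UMIs of the 4 genes in alpha, delta and gamma cells of every library. Alpha cells had 5372 CPM in the intervention library, 5255 in late db/db, 5241 in the early db/db library and 6128 in the control. Gamma cells had 4485, 4377, 4033 and 4871 CPM, and delta cells 3464, 3550, 3024 and 3780. Beta cells had 4592 CPM in the intervention library (4573 to 4611), 3141 in late db/db (3119 to 3162), 2554 in early db/db (2536 to 2573) and 4341 in the control (4318 to 4363). Thus beta cells ranked above delta cells in the intervention and control libraries and below them in late and early db/db. Counted against all UMIs, beta cells ranked below delta cells in all 4 libraries, at 1683 against 2111 CPM in the intervention library and 1193 against 2524 in the control.

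In beta cells Pcsk2 was lower in early db/db than in the control by a log2 ratio of -0.77 (-0.78 to -0.75), with -0.36 under all UMIs and -0.42 under TMM. For late db/db against control it was -0.47 (-0.48 to -0.45) and -0.15 under TMM, but 0.13 with all UMIs, so no direction can be given across these scalings. Late exceeded early db/db by 0.30, 0.49 with all UMIs and 0.27 with TMM. The intervention library exceeded late db/db by 0.55 (0.54 to 0.56), or 1.46-fold, with 0.36 and 0.51 under the other scalings, and 96.2% of genes had a lower ratio. It exceeded the control by 0.08, with 0.50 and 0.36. In alpha cells the Pcsk2 ratio to control was -0.19 in the intervention library, -0.22 in late db/db and -0.23 in early db/db.

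The balance of the convertases needs no denominator, since UMIs of both genes come from the same cells. Messages of different genes may be captured unequally, so the ratio is compared between classes and libraries and is not a ratio of enzymes. Beta cells held 12.0 Pcsk1 UMIs per 100 Pcsk2 UMIs in the intervention library (11.8 to 12.1), 9.90 in late db/db (9.68 to 10.1), 12.5 in early db/db (12.2 to 12.7) and 14.8 in the control (14.6 to 15.01). These rest on 25678, 8102, 9344 and 21329 Pcsk1 UMIs. Late db/db lay lowest, the control highest, and the intervention and early libraries between them with intervals that do not overlap by a narrow margin. The log2 difference of late db/db from control was -0.58 (-0.62 to -0.54), that of early db/db from control -0.25 (-0.29 to -0.21) and that of late from early db/db -0.33 (-0.38 to -0.29). The intervention library exceeded late db/db by 0.27 (0.24 to 0.31) and lay below the control by -0.31 (-0.33 to -0.28).

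The same order was seen in a single band of matched depth. In beta cells with 10000 to 20000 UMIs outside hormone and mitochondrial genes, a band chosen after seeing the data, the balance was 12.1 per 100 in the intervention library (11.8 to 12.3), 9.12 in late db/db (7.97 to 10.4), 12.8 in early db/db (12.3 to 13.3) and 14.5 in the control (14.3 to 14.8). The band held 1672, 50, 504 and 1547 cells in that order, so the late db/db value rests on few cells. Among the shallowest beta cells of each library, described below, the control did not have the highest balance.

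In the other classes the balance was lower than in beta cells in each library, least so in delta cells and most so in alpha cells. Delta cells had 2.73 Pcsk1 UMIs per 100 Pcsk2 UMIs in the intervention library, 2.67 in late db/db, 2.90 in the early db/db library and 2.78 in the control. Their log2 differences between libraries ran from -0.12 to 0.06, and every interval includes 0, the widest running from -0.33 to 0.40. That leaves room for differences as large as those seen between some beta cell libraries. Gamma cells had 1.23 per 100 in the intervention library, 0.628 in late db/db, 1.15 in the early db/db library and 1.62 in the control. The gamma difference of late db/db from control was -1.37 (-2.10 to -0.63), from 20 Pcsk1 UMIs in late db/db, and it was -0.24 under a stricter hormone share. Alpha cells had 0.334, 0.0248, 0.0600 and 0.102 per 100, at Pcsk1 levels not told from free RNA. Leukocytes carried 23.3, 10.4, 11.8 and 6.32 per 100, above the beta cell ratio in the intervention library, near it in late and early db/db, and between the beta and delta cell ratios in the control.

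**Figure D2:**
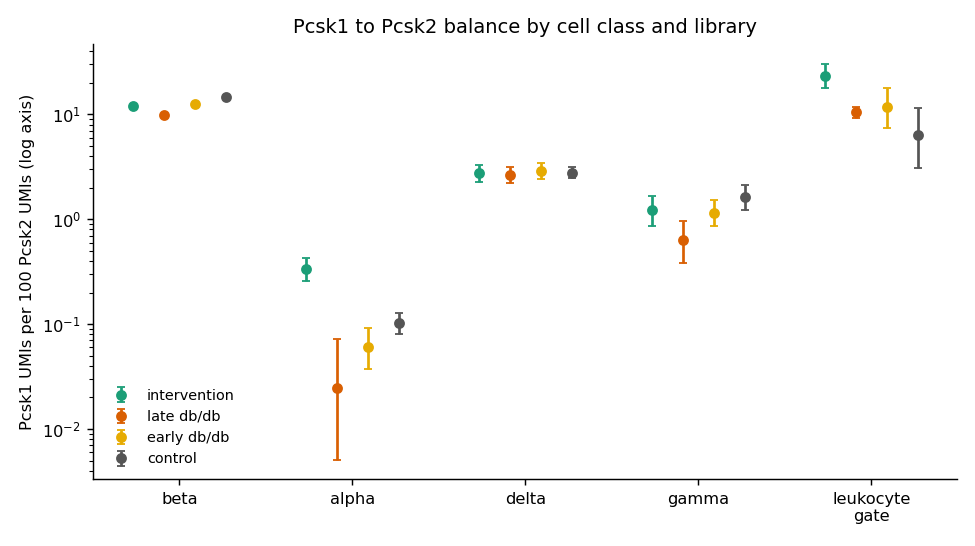
Pcsk1 UMIs per 100 Pcsk2 UMIs (log axis) in each endocrine class and in the leukocyte gate, 1 point per library, with 95% counting intervals. In beta cells late db/db (9.90) lies lowest and the control (14.8) highest, and in delta cells the 4 libraries overlap between 2.67 and 2.90.

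Within the control the balance was not one value. When beta cells were split into quartile groups by the insulin share of their UMIs, Pcsk1 per 100 Pcsk2 was 11.9, 12.9, 15.3 and 17.4 from the lowest to the highest insulin share in the control. Over the same groups it was 12.1, 11.9, 12.1 and 11.8 in the intervention library, 9.27, 10.4, 9.22 and 10.6 in late db/db, and 12.6, 13.0, 11.7 and 12.6 in early db/db. The balance rose at every step of insulin share in the control and in no other library. Both Pcsk1, at 467 and 839 CPM, and Pcsk2, at 3912 and 4812 CPM, were higher in the top than in the bottom group of the control, Pcsk1 more so. Insulin share also set the beta class, so these groups describe cells within it. Split by UMIs outside hormone genes, the balance rose with depth in the control, 11.4, 12.5, 15.1 and 16.8, and declined in the intervention library, 13.5, 12.6, 11.9 and 11.3, in late db/db, 11.3, 10.3, 9.91 and 9.0, and in early db/db, 13.6, 12.7, 12.5 and 11.9. The shallowest group of late db/db and of the control had nearly equal balances, 11.3 and 11.4 per 100. In that group the intervention library, at 13.5, and early db/db, at 13.6, lay above the control. They also lay above it in the group of lowest insulin share, at 12.1 and 12.6 against 11.9. The control was thus not the highest library in the lowest group of either split. The depth limits of these groups differ between libraries.

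**Figure D3:**
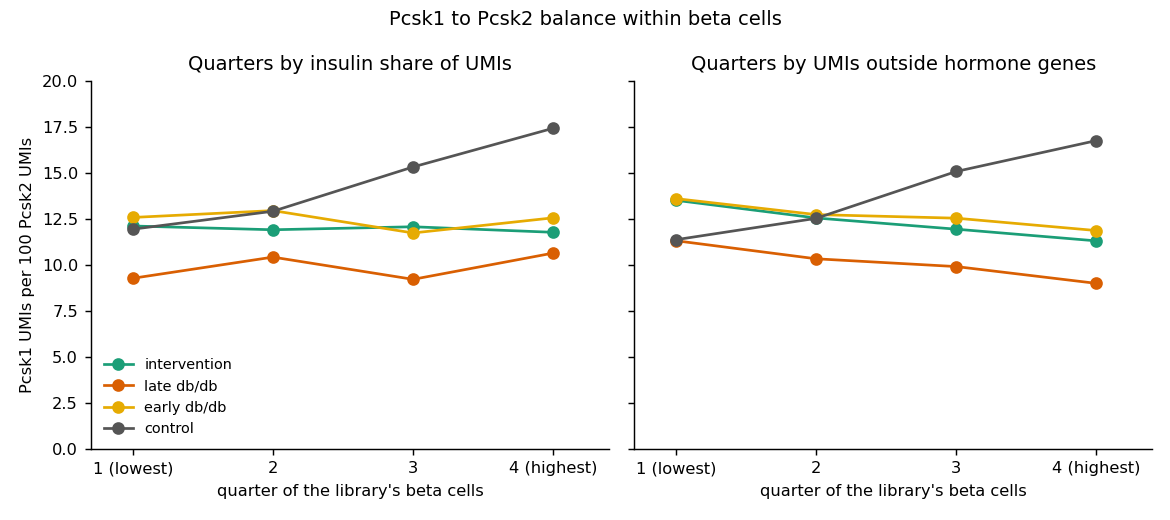
Pcsk1 UMIs per 100 Pcsk2 UMIs in beta cells split into 4 groups of nearly equal cell number within each library, by insulin share of UMIs (left) and by UMIs outside hormone genes (right), with 1 line per library. The control line rises at every step, between 11.9 and 17.4 on the left and between 11.4 and 16.8 on the right, and no other line does.

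Per cell, among beta cells with at least 20 UMIs of both convertases together, the median share of Pcsk1 in that sum was 10.3% in the intervention library, 8.57% in late db/db, 10.6% in the early db/db library and 11.8% in the control. The 10th to 90th percentiles ran from 4.42% to 18.8%, from 3.497% to 16.3%, from 3.23% to 20.7% and from 4.597% to 20.6% in that order, so cells of all libraries cover nearly the same range. The spread over cells, 5.96, 5.69, 7.33 and 6.33 percentage points (SD), was wider than the 3.99, 2.83, 4.34 and 4.27 points that counting alone gives. Cells with no Pcsk1 UMI were 1.28%, 1.42%, 3.03% and 1.27% of these beta cells. Aldh1a3, an aldehyde dehydrogenase known as a marker of failing beta cells, was used to describe the db/db beta cells further. Beta cells with at least 3 of its UMIs had 11.3 Pcsk1 UMIs per 100 Pcsk2 UMIs in the intervention library, 9.62 in late db/db and 11.6 in early db/db, against 13.5, 10.5 and 15.3 in cells with none. The cells with none were shallower, with medians of 19749, 31520 and 26827 UMIs against 48149, 91959 and 60718.5 in cells with at least 3, and only 50 of them were in late db/db.

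Pam stood above its control level in the intervention, late db/db and early db/db libraries, and in late and early db/db it differed from the control in the opposite direction to Pcsk1. In beta cells it stood at 1203 CPM in the intervention library (1193 to 1213), 1574 in late db/db (1559 to 1589), 1542 in early db/db (1527 to 1556) and 553 in the control (545 to 561). The 3 db/db libraries lay well above the control, and the intervention library lowest among them. The log2 ratio to control was 1.12 (1.10 to 1.14) in the intervention library, 1.51 (1.48 to 1.53) in late db/db and 1.48 (1.453 to 1.503) in early db/db, that is 2.17-, 2.84- and 2.79-fold. All 3 were larger under the other scalings, at 1.54, 2.11 and 1.88 with all UMIs and 1.40, 1.82 and 1.83 with TMM. In late db/db 97.6% of genes had a lower ratio to control. The intervention library lay below late db/db by -0.39 (-0.41 to -0.37), with -0.57 and -0.43 under the other scalings. Late and early db/db differed by 0.03, with 0.23 over all UMIs and -0.003 under TMM. The 25th percentile of single beta cells, 879 CPM in the intervention library, 1157 in late db/db and 955 in early db/db, lay above the 75th percentile of the control, 722 CPM.

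Among the classes, Pam was lowest in beta cells in the control and highest in beta cells in the other libraries. Delta cells had 1006 CPM in the intervention library, 969 in late db/db, 836 in the early db/db library and 875 in the control, alpha cells 754, 831, 728 and 668, and gamma cells 653, 631, 605 and 621. Against all UMIs the beta cell level stayed lowest in the control, at 152 CPM, and in the intervention library delta cells, at 613, stood above beta cells, at 441. In delta, alpha and gamma cells the log2 ratios of late db/db to control were 0.15 (0.05 to 0.24), 0.31 (0.24 to 0.39) and 0.02 (-0.17 to 0.21).

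Over the 4 beta cell libraries Cpe had a narrower range of levels than Pcsk1 and Pam, though not in every comparison. In late against early db/db it differed more, with Pcsk1 at -0.03 and Pam at 0.03. In beta cells it stood at 2971 CPM in the intervention library (2955 to 2987), 2834 in late db/db (2814 to 2855), 3910 in early db/db (3888 to 3933) and 3358 in the control (3338 to 3377). Early db/db lay highest and late db/db lowest. Early db/db exceeded the control by a log2 ratio of 0.22 (0.21 to 0.23), with 0.62 and 0.57 under all UMIs and TMM. Late lay below early db/db by -0.46 (-0.48 to -0.45), with -0.27 and -0.50, and only 3.27% of genes had a lower ratio in that comparison. For late db/db against control the value of -0.24 turned to 0.35 and 0.07, for the intervention against control -0.18 turned to 0.24 and 0.10, and for the intervention against late db/db 0.07 turned to -0.12 with all UMIs and was 0.03 with TMM, so none of these has a direction that holds. The lower Cpe in late than in early db/db was also seen in alpha cells (-0.48), delta cells (-0.50) and gamma cells (-0.41), with intervals below 0 in each. The age and the library differ along with the group in that comparison. The class order of Cpe was beta, alpha, gamma, delta in all 4 libraries on the scale without hormone genes, while against all UMIs alpha cells stood above beta cells in the intervention library, at 1145 against 1089 CPM, and in the control, at 1665 against 923. On that scale delta cells also stood above gamma cells in all 4 libraries, and beta cells were the lowest class in the control.

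**Figure D4:**
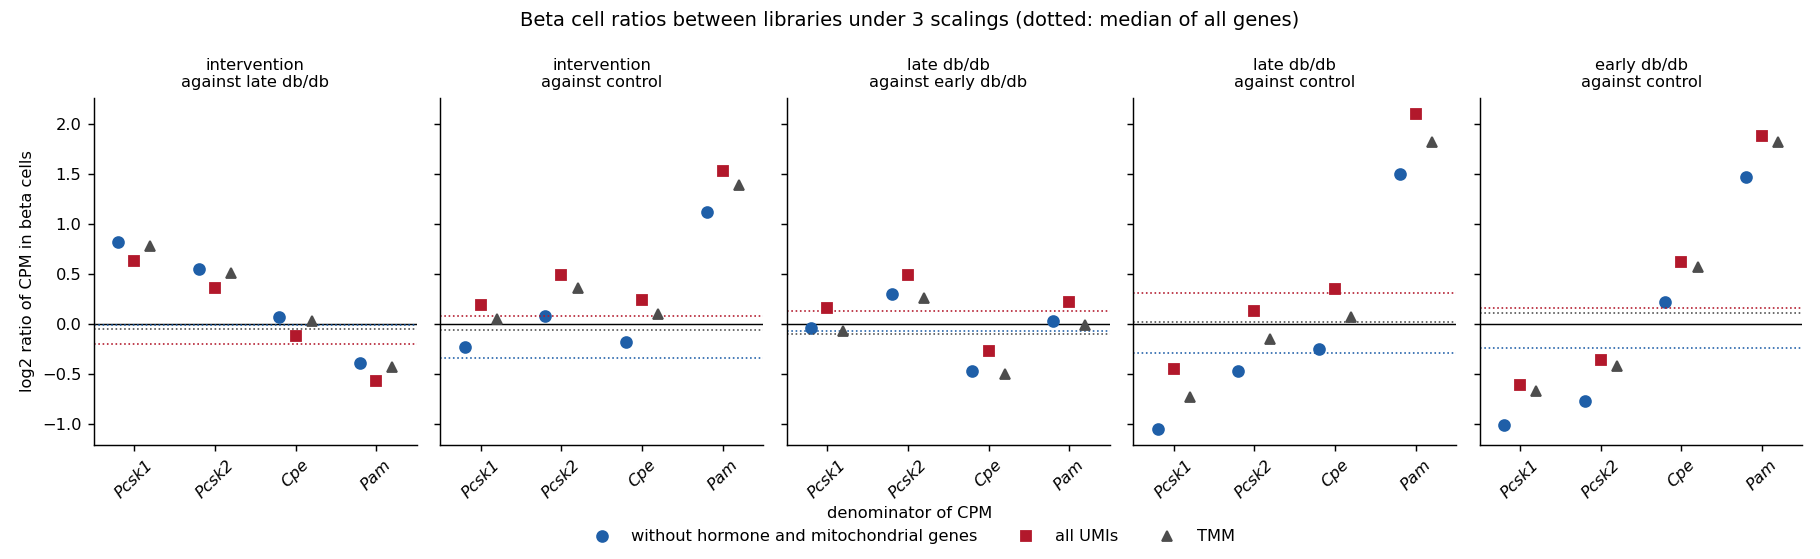
Log2 ratio of each enzyme message in beta cells for 5 comparisons, under 3 denominators of CPM, with a dotted line of the same colour at the median of the genes compared without hormone genes, taken under each denominator. Pam lies at 1.12 to 2.11 in the comparisons with control under every denominator, Pcsk1 lies below 0 in late and early db/db against control under every one, and Cpe and Pcsk2 change sign with the denominator in late db/db against control.

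Counted by the 2-fold limit, 1 of the 4 genes was lower and 1 higher in beta cells of late db/db against control, Pcsk1 and Pam, beside 11.1% of genes lower and 4.39% higher. With all UMIs as denominator or TMM scaling only Pam passed it. Of the 4187 genes, 184 were higher and 466 lower, against 551 and 138 of the same genes with all UMIs (13.2% and 3.3%) and 309 and 227 with TMM (7.38% and 5.42%). The same genes passed it in early db/db against control, beside 16.6% and 5.31%, and again Pam alone under the other scalings. There 226 of 4253 genes were higher and 704 lower, against 501 and 284 of the same genes with all UMIs and 438 and 314 with TMM. Pam alone passed it in the intervention library against control, under every scaling, beside 4.10% of genes higher and 7.79% lower (171 and 325 of 4173 genes, against 350 and 108 of the same genes with all UMIs and 271 and 144 with TMM). None of the 4 was 2-fold apart in late against early db/db or in the intervention against late db/db, where 0.983% and 1.39% of all genes were. These comparisons share libraries, the control in 3 of them and late db/db in 3, and are given side by side. In alpha cells Pcsk1 fell under the entry limit of 50 CPM, and none of the other 3 genes was 2-fold apart in any of the 5 comparisons. The share of all genes apart in alpha cells was 1.82% for the intervention against late db/db, 2.51% for it against control, 1.45% for late against early db/db, 2.49% for late db/db against control and 4.51% for early db/db against control. Delta cells had none of the 4 apart, beside 1.68%, 2.02%, 1.46%, 2.73% and 3.97% of genes in the same order. In gamma cells Pcsk1 alone was, lower in late db/db against control (27.5 and 78.8 CPM) beside 1.76% of genes, and higher in the intervention against late db/db (55.1 and 27.5 CPM) beside 1.36% of genes. No gamma enzyme was apart in the other 3 comparisons, where 2.63%, 2.74% and 5.35% of genes were. Both gamma ratios rest on 20 UMIs in late db/db, and the second was under 2-fold with all UMIs and with TMM. In late against early db/db gamma Pcsk1 had too few UMIs to enter.

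The enzymes were also set against the hormone message that defines each class. Per 1000 insulin UMIs, beta cells held 0.426 Pcsk1 UMIs in the intervention library, 0.298 in late db/db, 0.238 in the early db/db library and 0.273 in the control. For Pcsk2 the values were 3.56, 3.01, 1.91 and 1.85, and for Cpe 2.30, 2.72, 2.92 and 1.43. Pam had 0.932, 1.51, 1.15 and 0.235, though its substrate in beta cells is amylin and not insulin. Iapp, the amylin gene, had log2 ratios to control of 1.23 in the intervention library, 0.91 in late db/db and 1.17 in early db/db. Those of Pam were 1.12, 1.51 and 1.48 in that order, so Pam did not exceed Iapp in the intervention library. On this scale Pcsk1 of late db/db was no longer below the control. Insulin message took 47.3% of beta cell UMIs in the intervention library, 43.5% in late db/db, 48.7% in the early db/db library and 64.6% in the control. In alpha cells, per 1000 glucagon UMIs, Pcsk2 had 9.38, 8.97, 7.08 and 10.4, and in delta cells, per 1000 somatostatin UMIs, 10.8, 13.1, 9.45 and 14.98. Insulin, glucagon and somatostatin shares also defined the classes.

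Genes that work beside these enzymes were followed in beta cells, 20 genes with 11 substrates of the pathway set apart. These lists were chosen with earlier results of these data known, so their counts are a description only. Of the 20, 10 had enough counts for late db/db against control, and 4 of these were at least 2-fold higher and 1 lower, beside 4.39% and 11.1% of all genes. With all UMIs as denominator the same 10 gave 5 higher and 0 lower, beside 13.2% and 3.3%, and with TMM 4 and 0, beside 7.38% and 5.42%. Their median log2 ratio was 0.17, beside -0.29 over all genes. Scg5, the chaperone that Pcsk2 needs to mature, stood at 3871 CPM in the intervention library, 3949 in late db/db, 4553 in the early db/db library and 1897 in the control. All 3 db/db libraries were at least 2-fold above the control for Scg5, while Pcsk2 itself was not. Pcsk1n, whose product inhibits Pcsk1, stood at 3579, 2731, 3617 and 4530 CPM. Its late db/db ratio to control was -0.73, with -0.13 and -0.41 under all UMIs and TMM, and its early and intervention ratios changed sign with the scaling. Scg3, a granin that takes part in sorting cargo and Cpe to granules, stood at 4746, 5308, 4680 and 2166 CPM.

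Of the genes that supply Pam with copper and reducing power, Cyb561, which passes electrons into granules, stood at 175 CPM in the intervention library, 183 in late db/db, 178 in the early db/db library and 91.3 in the control. Slc31a1, a copper importer, stood at 48.0, 60.2, 70.3 and 44.2 CPM. Atp7a, the pump that loads copper into the secretory pathway, ran the other way at 26.5, 25.2, 21.3 and 51.3 CPM, and its late db/db ratio to control of -1.03 was -0.43 with all UMIs and -0.71 with TMM. Ctsl, a protease of lysosomes that also cuts neuropeptide precursors, stood at 558, 623, 663 and 293 CPM. Cpd, a carboxypeptidase of the Golgi with the specificity of Cpe, had log2 ratios to control of -0.19 to 0.50 over the db/db libraries and scalings. Of 7 other convertases, only Mbtps1 had enough counts, with a late db/db ratio to control of -0.70, and Furin, the convertase of most cells, had 37.4, 28.4, 26.4 and 37.3 CPM, under the entry limit.

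The substrates moved both ways, with 3 of 11 at least 2-fold higher and 4 lower in late db/db against control, beside 4.39% and 11.1% of all genes. The counts were 4 and 3 with all UMIs, beside 13.2% and 3.3%, and 4 and 4 with TMM, beside 7.38% and 5.42%. Iapp, which encodes the Pam substrate amylin, had log2 ratios to control of 1.23 in the intervention library, 0.91 in late db/db and 1.17 in early db/db, all larger under the other scalings. Vgf, Chgb and Scg2, granule proteins cut by the same convertases, had late db/db ratios of 3.91, 2.03 and 1.11. Chga, another granule protein, stood at 15574 CPM in the intervention library, 15290 in late db/db, 13628 in the early db/db library and 17535 in the control, and its ratios to control changed sign with the scaling. Ins1 had -2.64 and Ins2 -0.85. Ppy had 0.06, within 2-fold. Gcg, Sst and Pyy, the lower substrates beside Ins1, are hormones of other classes, and in beta cells the class limit capped Gcg and Sst. In late against early db/db none of the 7 other pathway genes with enough counts and none of the 11 substrates was 2-fold apart, beside 0.983% of all genes. In the intervention against late db/db 0 of 7 pathway genes were, beside 1.39% of all genes. There 2 of 11 substrates were higher, Ins1 at 1.49 and Gcg, a hormone of another class, at 1.69.

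The genes whose levels most resembled each enzyme were found by Pearson correlation of log2(CPM + 1) over the 16 sums of 4 classes in 4 libraries, among 4175 genes. The sums share libraries and classes, so these values are a description, and differences between classes enter them. For Pcsk1 the sums include alpha cells at 1.30 to 17.9 CPM, levels not read as expression. For Pcsk1 they were Aqp11 (0.97), Araf (0.97), Spock2 (0.97), Vil1 (0.96) and Dusp23 (0.96), and for Pcsk2 Tmsb15b2 (0.90), Mat1a (0.86), Robo2 (0.86) and Slc7a2 (0.85). For Cpe they were Ap1s1 (0.92), Guk1 (0.87), Ociad1 (0.87), Coq9 (0.86) and Becn1 (0.85), and for Pam Ncstn (0.91), Fam134b (0.87), Bex2 (0.85), Gnptg (0.85) and Itfg1 (0.85). Among themselves over these sums, Pcsk2 ran against Pcsk1 (-0.64) and against Pam (-0.64), and Pcsk1 and Pam had 0.41. Cpe had 0.30 with Pcsk1, 0.20 with Pam and -0.03 with Pcsk2. Within beta cells, on the scale without hormone genes, Pcsk1 and Pcsk2 were both lower in late and early db/db than in the intervention and control libraries.

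Values that moved with the db/db libraries were not tested for their part in these results. Besides the lower sum of beta markers given above, alpha markers summed over 7 genes came to 20805 CPM in beta cells of the intervention library, 12208.5 in late db/db, 13556 in the early db/db library and 4008 in the control, with none of the 7 at 0. Most of that was Ttr, at 19964, 11435, 12653 and 3732 CPM. Acinar markers over 4 genes summed to 98.9, 180, 1094 and 77.2 CPM in beta cells, with none at 0. Duct markers over 3 genes summed to 457, 305, 490 and 16.4 CPM, also with none at 0. Leukocyte markers over 7 genes summed to 299, 306, 232 and 223 CPM, with 1 of them at 0 in the intervention library and 2 in the control. Beta cells just inside the limit of 20% insulin, with up to 25%, had a Pcsk1 to Pcsk2 ratio of 0.123 in the intervention library, 0.101 in late db/db, 0.159 in the early db/db library and 0.146 in the control. Cells just outside it, with 15% to 20%, had ratios of 0.126, 0.0992, 0.142 and 0.113, and in the control these groups held only 6 and 17 cells.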

How the data were processed

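Single-cell RNA was counted per gene and cell barcode in 4 libraries. The authors deposited UMI counts made with Cell Ranger on mouse build mm10 (matrix software 3.0.0, per the file headers). The submitters' processing notes also name CASAVA 1.8 and Seurat. Libraries held 120934779 to 166034254 UMIs over 6143 to 7162 barcodes.

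Cells with at least 1000 UMIs, 500 genes and at most 20% mitochondrial UMIs were kept. Scrublet (scanpy 1.11.5) removed the highest doublet scores at 0.8% per 1000 cells, since its own threshold marked too few cells in 1 library. Classes followed the hormone shares in the text. Alpha cells had Gcg above and gamma cells Ppy at or above the other of the pair, and cells with several hormones past their limits were left out. Leukocytes had at least 3 UMIs over several marker genes and no hormone past its limit. UMIs were summed per class and library and given as CPM without mitochondrial genes and 7 hormone genes. A ratio was taken where the higher library reached 50 CPM and both together 50 UMIs, and was called apart at 2-fold. Intervals are 95% (exact Poisson for levels, exact conditional binomial for ratios, Clopper-Pearson for shares, delta method for balance differences). Only the ratio intervals were checked on simulated data, which held counting error alone. Other denominators were all UMIs and TMM (edgeR 4.0.16, R 4.3.3). Tools were Python 3.11.15, numpy 2.4.6, pandas 2.3.3, scipy 1.17.1 and matplotlib 3.10.9. The named genes are the 4 enzymes, listed pathway genes at least 2-fold apart or at 500 CPM or more, and the 5 genes most like each enzyme, less any gene that is not reported here. Cpd, Furin, Mbtps1, Slc31a1, Aldh1a3 and the marker genes given singly lie outside that rule and were named after their values were seen. The enzymes and the lists were chosen with earlier results of these data known. Sequences are from RefSeq (GRCm38.p6). Each 3′ tag counts 1 molecule whatever its length.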

Additional observations from a re-analysis of the deposited data

Results flagged for a closer look

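Cells past the limits of both Sst and Ppy lie outside the 4 classes and enter no comparison. Their Pcsk1 level was 48.0 CPM in late db/db (23 cells), 48.7 CPM in the early db/db library (91 cells) and 92.2 CPM in the control (167 cells), above the leukocyte levels of 11.4, 9.05 and 13.5 CPM in the same libraries. In the intervention library the level was 74.5 CPM in 67 cells, below the 103 CPM of its leukocytes. The balance in these cells was 2.19 Pcsk1 UMIs per 100 Pcsk2 UMIs in the intervention library, 1.246 in late db/db, 1.59 in the early db/db library and 2.39 in the control. The part of doublets in these cells was not tested.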

How the results depend on the processing

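No paired analysis was possible because the labels give 1 library per group, and none could be left out in turn. All values here are log2 ratios or differences in beta cells. For late db/db against control, all UMIs as denominator gave -0.45 for Pcsk1, 0.13 for Pcsk2, 0.35 for Cpe and 2.11 for Pam, and TMM gave -0.73, -0.15, 0.0712 and 1.82. Thinning to 3000 UMIs gave -0.89 for Pcsk1, -0.43 for Pcsk2 and -0.21 for Cpe, and the depth band, chosen after seeing the data, gave -0.91, -0.24 and -0.10, with 2.16 for Pam. A stricter hormone share gave -0.996 for Pcsk1 and -0.42 for Pcsk2, a looser one -0.48 for Pcsk2, and keeping doublets 1.48 for Pam. Subtracting the leukocyte profile as free RNA gave -0.95, -0.25, -0.12 and 1.62. In beta cells the scaled profile came to 30.3% of UMIs in the intervention library, 134% in late db/db, 144% in the early db/db library and 76.0% in the control, so it overstates free RNA and its values are not relied on. Under it the intervention against late db/db changed sign for Pcsk1 (-0.36), Pcsk2 (-0.55) and Cpe (-1.04), the intervention against control for Pcsk2 (-0.79), and late against early db/db for Pcsk2 (-0.02) and Pam (-0.36). Pcsk1 in late db/db against control fell short of 2-fold lower with all UMIs, TMM, the stricter share, thinning, the depth band and the subtraction, while its direction held under each. The cause was not tested.

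The balance difference kept its sign under each alternative setting, though the values with free RNA subtracted are not relied on. It did not keep its sign within every group of beta cells. In the shallowest group early db/db, at 13.6 per 100, and the intervention library, at 13.5, lay above the control, at 11.4. Late db/db against control came to -0.47 thinned, -0.70 with free RNA subtracted and -0.67 in the depth band, and early db/db against control to -0.17, -0.35 and -0.18. The intervention against late db/db came to 0.34, 0.18 and 0.40, the intervention against control to -0.13, -0.52 and -0.27, and late against early db/db to -0.49 in the depth band. With the lower entry minimum of 10 CPM and 10 UMIs, late db/db against control had 387 genes higher and 1208 lower, early db/db against control 457 and 1768, late against early db/db 31 and 51, the intervention against late db/db 112 and 63, and the intervention against control 378 and 834. These lower minimums let in 8603 to 9445 genes, against 3454 to 4253. With all UMIs, and the genes held fixed after seeing the data, late against early db/db had 12 and 24 of 3460 genes, against 8 and 26, and the intervention against late db/db 18 and 40 of 3454, against 31 and 17. Where genes entered anew over all UMIs, 1267 to 1428 did. Late db/db against control then had 351 higher and 43 lower, early db/db against control 297 and 70, the intervention against control 198 and 32, late against early db/db 8 and 10, and the intervention against late db/db 9 and 17. Under TMM 3569 to 3990 entered, and late db/db against control had 319 and 191, early db/db against control 451 and 272, and the intervention against control 272 and 124. Pcsk1 rests on only 3 to 77 UMIs in alpha and gamma cells, which limits its ratios there.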
